A study of Mus musculus with 12 samples.

Results

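Fat cells of the mammary gland were followed through 10 genes that they are known to express, Pparg, Cidec, Plin1, Plin4, Lpl, Fabp4, Adipoq, Lep, Retn and Cfd, out of 21960 genes listed for each of 12 mouse mammary tumors. The genes were taken as adipocyte genes of the mammary fat pad, with earlier results of these data known, and were found by their symbols, each of which occurred once. All 10 reached 1 TPM, a share of transcripts scaled to a fixed total, in 3 or more tumors of each comparison and were tested in all of them. The question was how much fat cell RNA each whole tumor held and how this amount went with treatment.

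The tumors came from female mice of the C57BL/6 strain that carry the polyoma virus middle T oncogene (PyMT) under the promoter of the mouse mammary tumor virus, which is active mainly in mammary epithelium. All 4 groups carry this transgene, and each holds 3 tumors numbered as replicates. RNA was extracted from frozen whole tumors, so it holds the tumor cells together with any host tissue in the piece.

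The IgG1 group received a control antibody named IgG1 in the labels, and the anti-PD-1 group received an antibody against the checkpoint receptor PD-1 (clone 4H2). Both of these groups began treatment when the first tumor measured 0.6 cm across, with 20 mg/kg antibody at first and 10 mg/kg every 6 days until day 18. The DOX/IgG1 and DOX/anti-PD-1 groups began at 1 cm and received 5 mg/kg doxorubicin (DOX) weekly for 5 weeks, each dose followed a day later by 10 mg/kg of the control or the anti-PD-1 antibody. The sample labels give 5 weeks of treatment for all groups. Doxorubicin thus goes with a larger tumor at the start, a lower first antibody dose and another schedule, and these cannot be told apart.

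White fat cells store triglyceride in a single large lipid droplet and make up much of the mammary fat pad, in which the ducts and the tumors grow. They take up fatty acids from lipoproteins, release them by lipolysis and secrete hormones such as adiponectin and leptin. Their differentiation depends on the nuclear receptor PPARγ together with factors of the C/EBP family.

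The values used here are without read counts, and the depth of each tumor is unknown. Between 6534 and 8104 genes per tumor were listed at 0, and a 0 can be an estimate that failed. The replicates are separate tumors, and every p-value sets a difference against the spread between tumors. The labels used here do not say whether the tumors of a group came from different mice, and the tests treat them as independent. In bulk RNA of this kind, fewer fat cells and less RNA per fat cell cannot be told apart. Values of 3 tumors are given in the order of replicates 1, 2 and 3.

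The amount of fat cell RNA differed 8.63-fold between the lowest and the highest of the 12 tumors. Summed over the 10 genes, the IgG1 tumors held 132, 421 and 354 TPM and the anti-PD-1 tumors 194, 151 and 223 TPM. The DOX/IgG1 tumors held 228, 1135 and 202 TPM, and the DOX/anti-PD-1 tumors 1004, 371 and 319 TPM. A pair of tumors, DOX/IgG1 replicate 2 and DOX/anti-PD-1 replicate 1, thus stood apart from the other 10, and the lower of them was 2.39-fold above the next tumor, IgG1 replicate 2. For each of the 10 genes the highest tumor was a member of this pair, and for 7 genes both were the highest of the 12. At the other end, IgG1 replicate 1 had the lowest sum and the lowest level of 5 genes. Because the pair decides much of what follows, results for doxorubicin are given with and without it, a choice made after seeing the data.

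**Figure D1:**
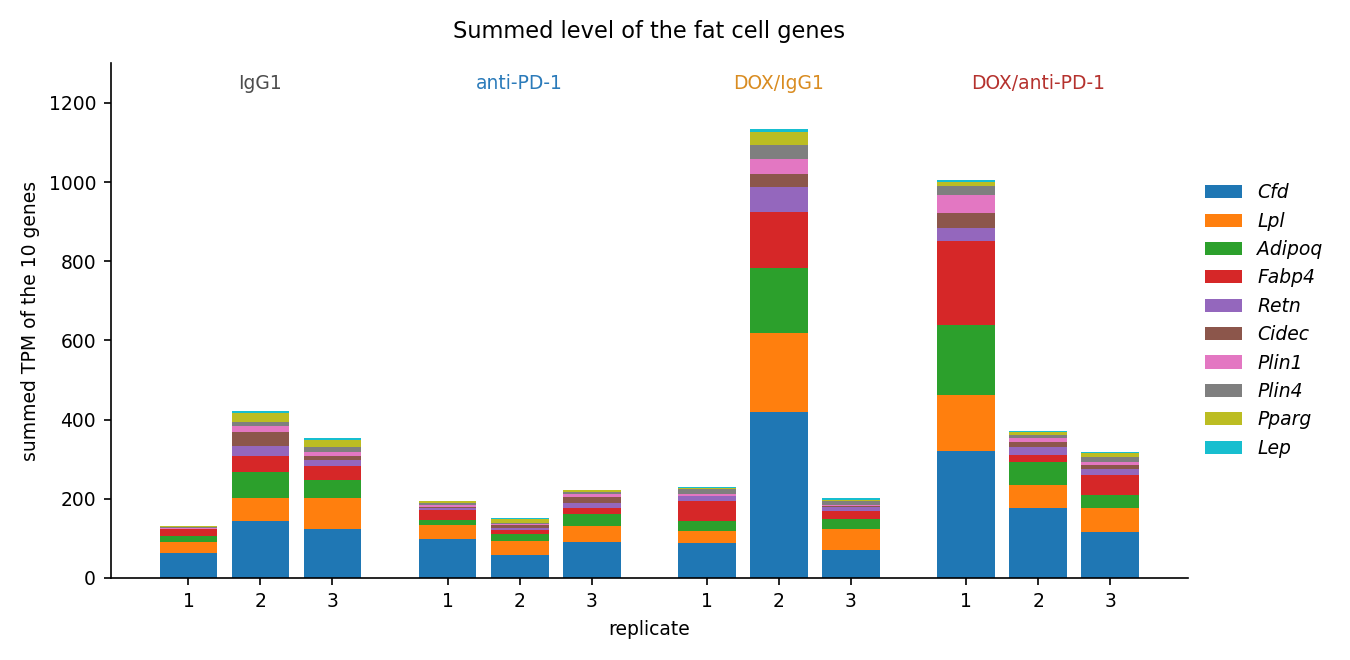
Summed TPM of the 10 fat cell genes (vertical axis, from 0) in each tumor, with the replicates of a group side by side and each color standing for a gene. DOX/IgG1 replicate 2 (1135 TPM) and DOX/anti-PD-1 replicate 1 (1004 TPM) stand above the other 10 tumors, which lie between 132 and 421 TPM.

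As group means, the sum was 302 ± 151 TPM (SD, n = 3) in IgG1, 189 ± 35.8 in anti-PD-1, 522 ± 531 in DOX/IgG1 and 565 ± 382 in DOX/anti-PD-1. The tumors of the groups overlapped, except that every DOX/anti-PD-1 tumor lay above every anti-PD-1 tumor. The mean of DOX/IgG1 was 215 TPM without its replicate 2, below that of IgG1, and the mean of DOX/anti-PD-1 was 345 TPM without its replicate 1. The 10 genes made up 0.0216% to 0.162% of the TPM of all listed genes. Cfd alone gave 39.3% of the sum on average and at most 50.5%. Without it the order of the pair was the same, with 716 TPM in DOX/IgG1 replicate 2 and 683 TPM in DOX/anti-PD-1 replicate 1 against at most 278 TPM elsewhere.

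Pparg (ENSMUSG00000000440, chromosome 6, 115360951 to 115490399, GRCm38), which encodes the nuclear receptor that directs fat cell differentiation, was at 3.78, 21.5 and 17.8 TPM under IgG1 and at 4.48, 11.01 and 6.53 TPM under anti-PD-1. It was at 2.86, 32.5 and 3.44 TPM under DOX/IgG1 and at 9.43, 9.15 and 8.66 TPM under DOX/anti-PD-1. The DOX/IgG1 group held the 2 lowest tumors and the highest of all 12, and DOX/anti-PD-1 replicate 1, so rich in other fat cell RNA, was not raised. Of the 10 genes Pparg followed the others least closely, with r = 0.72 between its log2(TPM + 1) and the mean z-score of the other 9 over 12 tumors.

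Of the lipid droplet proteins, Cidec (ENSMUSG00000030278, chromosome 6, 113424634 to 113435760), which fuses droplets into a single large one, was at 1.80, 35.3 and 9.98 TPM under IgG1 and at 1.93, 5.97 and 16.1 TPM under anti-PD-1. Its level was 1.32, 31.9 and 1.37 TPM with DOX/IgG1 and 37.8, 12.7 and 10.8 TPM with DOX/anti-PD-1. Every group but DOX/anti-PD-1 thus held a tumor below 2 TPM, and the 4 groups overlapped. Plin4 (ENSMUSG00000002831, chromosome 17, 56100591 to 56109803), a coat protein of lipid droplets, was at 1.35, 10.4 and 13.5 TPM under IgG1 and at 4.97, 2.87 and 4.39 TPM under anti-PD-1. With doxorubicin it was at 11.9, 34.7 and 9.58 TPM beside IgG1 and at 24.6, 7.19 and 12.0 TPM beside anti-PD-1. All 6 doxorubicin tumors lay above all 3 anti-PD-1 tumors but not above the IgG1 tumors. Plin1 (ENSMUSG00000030546, chromosome 7, 79720218 to 79732903), which guards the droplet against lipases, ranged from 1.87 TPM in IgG1 replicate 1 to 39.0 TPM in DOX/IgG1 replicate 2 and 43.4 TPM in DOX/anti-PD-1 replicate 1, and it followed the other 9 genes most closely (r = 0.97).

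Lpl and Fabp4 serve the uptake and transport of fatty acids. Both are also known from other cells, Lpl from muscle, macrophages and mammary epithelium, and Fabp4 from capillary endothelium and macrophages. Fabp4 (ENSMUSG00000062515, chromosome 3, 10204088 to 10208576) was at 16.0, 39.4 and 33.6 TPM under IgG1 and at 23.7, 9.89 and 14.8 TPM under anti-PD-1. It was at 50.7, 140 and 21.6 TPM under DOX/IgG1 and at 214, 18.7 and 51.7 TPM under DOX/anti-PD-1. In 4 of the 6 doxorubicin tumors it lay above each tumor without doxorubicin, while DOX/IgG1 replicate 3 and DOX/anti-PD-1 replicate 2 lay within their range. Lpl (ENSMUSG00000015568, chromosome 8, 68880491 to 68907448), the lipase that frees fatty acids from lipoproteins, ranged from 27.1 TPM in IgG1 replicate 1 to 140 TPM in DOX/anti-PD-1 replicate 1 and 201 TPM in DOX/IgG1 replicate 2, a range of 7.43-fold.

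Among the secreted products, Adipoq (ENSMUSG00000022878, chromosome 16, 23146536 to 23158028), which encodes adiponectin, was at 16.5, 66.7 and 45.4 TPM under IgG1 and at 14.2, 17.3 and 31.5 TPM under anti-PD-1. Its level was 23.4, 164 and 25.1 TPM with DOX/IgG1 and 177, 57.9 and 32.1 TPM with DOX/anti-PD-1. DOX/IgG1 replicates 1 and 3 lay between the lowest and the middle IgG1 tumor, so that this group was high in a single tumor only. Retn (ENSMUSG00000012705, chromosome 8, 3655770 to 3660110), which encodes resistin, was listed at 0 in IgG1 replicate 1 and at 24.3 and 15.1 TPM in the other IgG1 tumors. It was at 5.88, 6.03 and 11.5 TPM under anti-PD-1, at 13.1, 64.3 and 9.71 TPM under DOX/IgG1 and at 32.8, 19.3 and 14.2 TPM under DOX/anti-PD-1. The DOX/anti-PD-1 tumors lay above all anti-PD-1 tumors, and the other groups overlapped.

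Lep (ENSMUSG00000059201, chromosome 6, 29060220 to 29073877), the gene of leptin, was the lowest of the 10 genes. It was listed at 0 in IgG1 replicate 1, at 4.88 and 5.05 TPM in the other IgG1 tumors and at 0.49, 1.74 and 0.34 TPM under anti-PD-1. It was at 1.37, 8.84 and 4.27 TPM under DOX/IgG1 and at 3.94, 2.22 and 4.60 TPM under DOX/anti-PD-1, so that DOX/anti-PD-1 again lay above anti-PD-1 in every tumor. Cfd (ENSMUSG00000061780, chromosome 10, 79890853 to 79892655), the gene of the complement protease adipsin, was the most abundant of the 10 genes, from 56.8 TPM in anti-PD-1 replicate 2 to 321 TPM in DOX/anti-PD-1 replicate 1 and 419 TPM in DOX/IgG1 replicate 2. By mean TPM over the 12 tumors, a value per length of transcript, Cfd (147) was followed by Lpl (68.5), Adipoq (55.9) and Fabp4 (52.8), then by Retn (18.0), Cidec (13.9), Plin1 (12.7), Plin4 (11.5), Pparg (10.9) and Lep (3.15), and the tumor ranges of neighbors in this order overlapped.

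**Figure D2:**
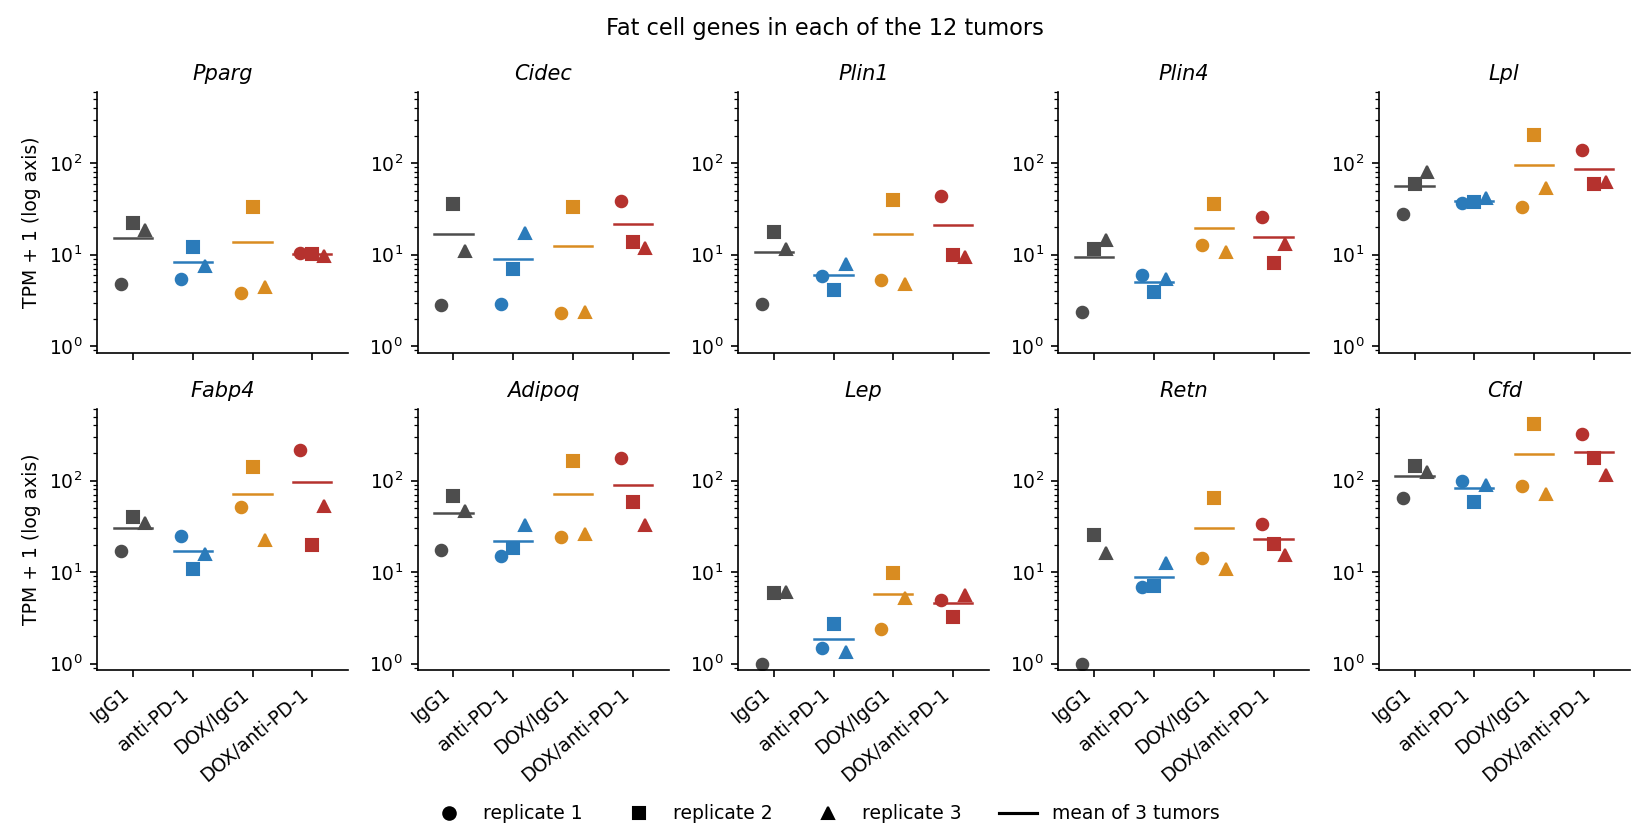
TPM + 1 of each fat cell gene (vertical log axis) in the 12 tumors by group, with a symbol for each replicate and a line at the mean of TPM + 1 of 3 tumors, left out where a tumor is listed at 0. DOX/IgG1 replicate 2 (square) or DOX/anti-PD-1 replicate 1 (circle) is the highest tumor for all 10 genes, while the other tumors of these groups mostly lie within the range of the tumors without doxorubicin, with exceptions such as Fabp4 in DOX/IgG1 replicate 1 and DOX/anti-PD-1 replicate 3.

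The 10 genes lie on 7 chromosomes. Their levels went together across the tumors, with r between 0.39 and 0.96 in the 45 pairs of genes and a median of 0.81 (log2(TPM + 1), n = 12, description only). Since they moved together, the 300 bases around their starts (250 before and 50 from the start on, RefSeq, GRCm38.p6) were searched on both strands for short motifs. A sequence was given for 8 of the 10 genes, in 11 windows, and none for Fabp4 and Lpl. The motif TTGCNNAA of C/EBP factors was found in 4 of the 11 windows and in 10.8% of all 32851 windows. The 4 are shown because factors of that family act with PPARγ in fat cells, and capitals mark the motif on either strand: a window of Pparg (chr6:115421816-115422115, plus strand), of Cidec (chr6:113434715-113435014, minus strand), of Plin1 (chr7:79732727-79733026, minus strand) and of Lep (chr6:29059971-29060270, plus strand).
Pparg: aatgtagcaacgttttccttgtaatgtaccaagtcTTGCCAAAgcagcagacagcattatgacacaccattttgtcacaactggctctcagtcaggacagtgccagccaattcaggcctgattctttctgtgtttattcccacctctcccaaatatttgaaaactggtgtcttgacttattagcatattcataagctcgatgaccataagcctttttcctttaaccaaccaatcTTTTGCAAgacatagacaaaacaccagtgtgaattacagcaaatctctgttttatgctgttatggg
Cidec: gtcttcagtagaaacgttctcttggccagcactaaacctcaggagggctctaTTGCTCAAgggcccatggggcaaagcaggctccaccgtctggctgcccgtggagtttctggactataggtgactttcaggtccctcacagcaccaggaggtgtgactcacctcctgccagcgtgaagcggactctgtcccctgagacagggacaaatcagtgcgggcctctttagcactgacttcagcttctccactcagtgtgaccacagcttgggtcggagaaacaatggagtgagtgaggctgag
Plin1: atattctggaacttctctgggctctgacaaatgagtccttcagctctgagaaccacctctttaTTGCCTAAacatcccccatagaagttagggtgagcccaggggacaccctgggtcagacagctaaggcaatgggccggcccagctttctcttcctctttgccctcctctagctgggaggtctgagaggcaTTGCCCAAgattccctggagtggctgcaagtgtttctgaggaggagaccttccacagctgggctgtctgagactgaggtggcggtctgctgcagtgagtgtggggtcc
Lep: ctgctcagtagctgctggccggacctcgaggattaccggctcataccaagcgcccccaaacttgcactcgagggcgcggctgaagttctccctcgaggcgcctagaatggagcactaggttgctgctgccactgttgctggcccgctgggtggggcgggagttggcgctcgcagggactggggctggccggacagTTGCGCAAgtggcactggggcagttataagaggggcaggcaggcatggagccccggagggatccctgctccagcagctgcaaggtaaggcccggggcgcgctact

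In the Lep window the motif lies 55 bases before the start and reads the same on both strands, and in the Pparg window the nearer match begins 16 bases before the start. The Plin1 window holds the motif at 187 and at 58 bases before the start. Other letters searched were AGGTCA, a half-site of nuclear receptors, in 2 of the 11 windows (both of Pparg, 16.3% of all windows), CCAAT in 4 (37.4%) and TATAAA in 1 (13.6%). A match is a description of the sequence and says nothing of binding in these tumors. The windows of Retn and Cfd held none of the motifs.

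Doxorubicin was first compared within each antibody. In DOX/anti-PD-1 tumors, set against those given anti-PD-1 alone, all 10 genes had a positive log2 fold change, with a median of 1.38 against 0.11 over all 13736 genes tested. Fold changes here are differences of mean log2(TPM + 1), which understates the change of low genes. Adipoq was at 89.1 ± 77.5 TPM (SD, n = 3) against 20.99 ± 9.22 TPM, with 1.76 as log2 fold change (standard error 0.56, limma, adjusted p = 0.495, higher in 3 of 3 tumors than in any anti-PD-1 tumor). Plin4 was at 14.6 ± 9.01 against 4.08 ± 1.08 TPM (log2 fold change 1.49, standard error 0.46, limma, adjusted p = 0.495). Lpl reached 86.4 ± 46.4 against 37.6 ± 3.02 TPM (log2 fold change 1.06, standard error 0.34, limma, adjusted p = 0.495), and for Pparg it was 9.08 ± 0.390 against 7.34 ± 3.34 TPM (0.35, standard error 0.38). Without DOX/anti-PD-1 replicate 1 the log2 fold change was 1.08 for Adipoq, 1.05 for Plin4 and 0.65 for Lpl.

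In 7 of the 10 genes, Adipoq, Plin1, Plin4, Lep, Retn, Lpl and Cfd, each DOX/anti-PD-1 tumor lay above each anti-PD-1 tumor, which held for 11.1% of all genes tested. After median-of-ratios scaling it held for 6, without Adipoq, whose lowest DOX/anti-PD-1 tumor (32.1 TPM) and highest anti-PD-1 tumor (31.5 TPM) are close. For these 7 genes the two-sided exact permutation p was 0.1, and 3 tumors against 3 cannot give a smaller value. No gene passed the limits of limma, which ask for an adjusted p under 0.1 and a log2 fold change beyond 1 in either direction, among the 10 (0 of 10) or among all genes (0%). The smallest adjusted p of the 10 was 0.488 (Retn). Since the levels of the 10 genes went together across the tumors (median r 0.81), counts out of the 10, here and below, are not counts of independent genes. At an unadjusted p below 0.05 there were 8 of the 10 genes and 1185 of all genes (8.63%). Without DOX/anti-PD-1 replicate 1 the median was 0.92 with 5 genes at that level (10.04% of all genes in that fit). With the spread estimated from all 12 tumors 3 genes reached it, and no share of all genes is given for that fit to set beside them. Lists of fibroblast, adipose progenitor, macrophage, myoepithelial and Schwann cell genes were also positive in every gene in this comparison, and their part in the result was not tested.

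Between DOX/IgG1 and IgG1 tumors the picture rested on DOX/IgG1 replicate 2. The log2 fold changes ran from -0.87 (Cidec) to 1.53 (Retn), positive for 8 of the 10 genes, with a median of 0.44 against 0.12 over all 13874 genes tested. Without replicate 2 the median was -0.34 and 4 of the 10 genes were positive, and without IgG1 replicate 1 it was -0.10. Retn, listed at 0 in IgG1 replicate 1, stood at 0.0898 without that tumor. Adipoq was at 70.8 ± 80.7 TPM (SD, n = 3) against 42.8 ± 25.2 TPM, with 0.31 as log2 fold change (standard error 0.76, limma, adjusted p = 0.939). This turned to -0.59 without DOX/IgG1 replicate 2. None of the 10 genes (0 of 10) was called by limma, against 5 genes or 0.0360% of all, and 0 of 10 against 7.73% had an unadjusted p below 0.05. In 0 of 10 genes did all DOX/IgG1 tumors lie above all IgG1 tumors, against 9.31% of all genes. The count of all genes called was 113 without DOX/IgG1 replicate 1, 0 without IgG1 replicate 1, 2 or 3, and 2 without DOX/IgG1 replicate 2 or 3, and none of the 10 was among them. Without DOX/IgG1 replicate 2 or 3, 1 of the 10 genes had an unadjusted p below 0.05 (6.17% and 5.68% of all genes).

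Over both antibodies, 6 tumors with doxorubicin were set against 6 without, with the antibody as a term. These are the same tumors as in the pairwise comparisons, so the result adds no separate evidence. The median log2 fold change of the 10 genes was 0.92 against 0.12 over all 14735 genes tested, and it was positive for 9 genes, with Pparg at -0.13. Fabp4 was at 82.8 ± 77.8 TPM (SD, n = 6) against 22.9 ± 11.6 TPM, with 1.42 as log2 fold change (standard error 0.53, limma, adjusted p = 0.326, exact permutation p = 0.0455). Plin4 was at 16.7 ± 10.7 against 6.25 ± 4.69 TPM (1.35, standard error 0.46, limma adjusted p = 0.271, exact permutation p = 0.0346). Retn showed a value of 1.45 (standard error 0.66, limma, adjusted p = 0.401, exact permutation p = 0.104), with IgG1 replicate 1 listed at 0, and of 0.8 without that tumor. Adipoq showed 1.03 (standard error 0.54, limma adjusted p = 0.472, exact permutation p = 0.184). The exact p-values compare mean TPM over all splits of the tumors. They leave out the antibody as a term, unlike the limma fit, and are not adjusted for the 10 genes. Under 13 alternatives each (scaling, or a tumor left out), the exact permutation p of Plin4 was no longer below 0.05 in 8 (0.0130 to 0.0693) and that of Fabp4 in 9 (0.0216 to 0.0909).

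Again 0 of 10 genes were called, against 3 of all genes (0.0204%). At an unadjusted p below 0.05 there were 3 of the 10, Plin4, Fabp4 and Retn, against 1765 of all genes (12.0%). Without the pair of tumors richest in fat RNA the median was 0.23, the number at that level was 0 of 10 (11.1% of all genes in that fit), and Cidec turned from 0.26 to -0.65, while Plin4 stood at 0.86 (standard error 0.46, limma adjusted p = 0.514) and Fabp4 at 0.62 (standard error 0.39). The number was 7 of 10 without DOX/IgG1 replicate 1 (14.8% of all genes in that fit), 6 without IgG1 replicate 2 or DOX/IgG1 replicate 3, 5 without IgG1 replicate 3, and 2 without DOX/IgG1 replicate 2 or DOX/anti-PD-1 replicate 1. It was also 2 without IgG1 replicate 1, anti-PD-1 replicate 1 or 2, or DOX/anti-PD-1 replicate 2. Over the 12 fits that each leave out a tumor, the share of all genes at that level was 9.89% to 14.8%. In each of these fits none of the 10 genes was called. Scaling the tumors by the median of ratios lowered the median of all genes by 0.11, 0.12 and 0.11 in the DOX/IgG1, DOX/anti-PD-1 and combined comparisons, and the medians of the 10 genes were then 0.32, 1.27 and 0.84.

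**Figure D3:**
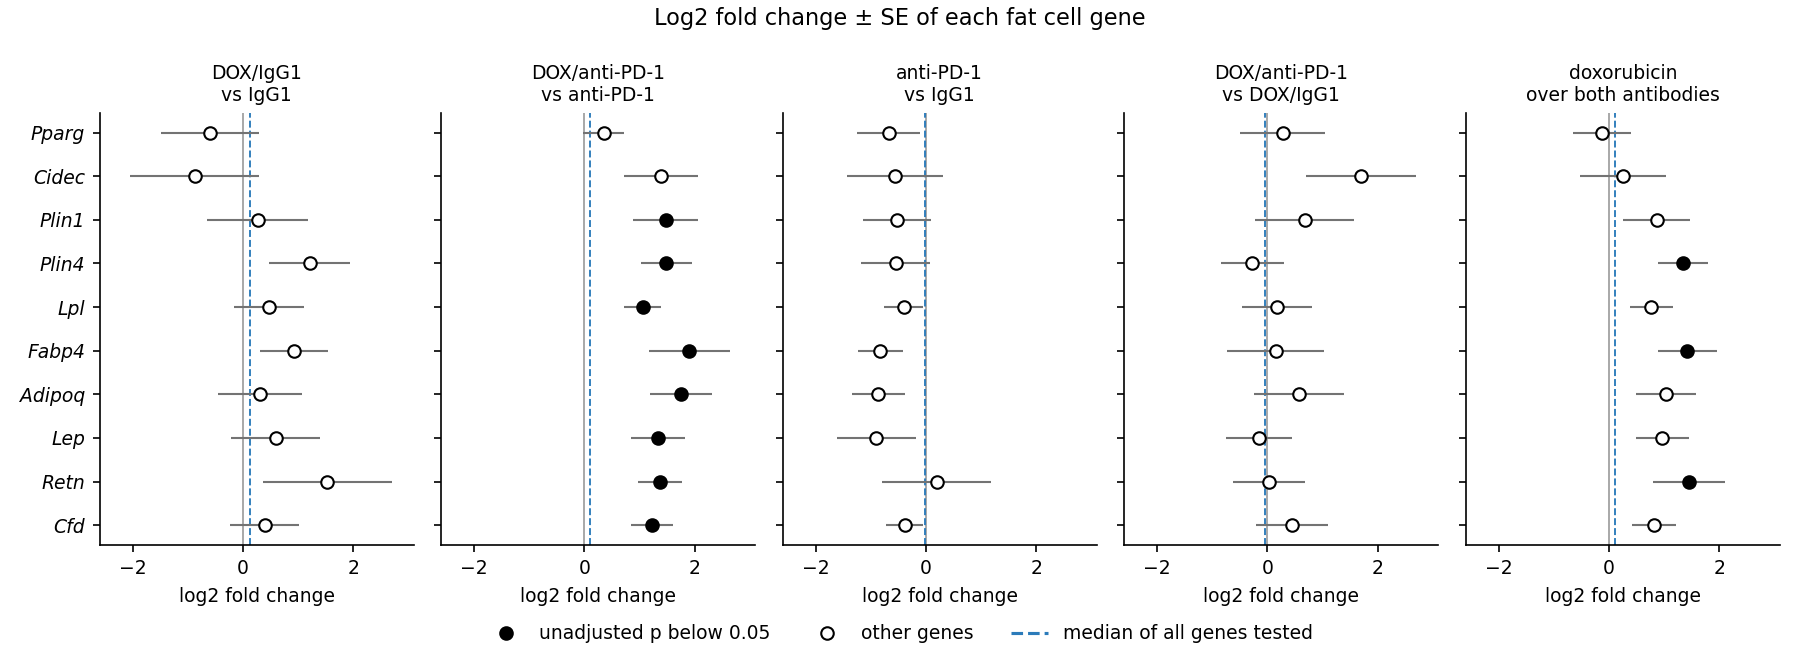
Log2 fold change (horizontal axis, difference of mean log2(TPM + 1)) of each fat cell gene in 5 comparisons, with bars for the standard error, filled points for an unadjusted limma p below 0.05 and a dashed line at the median of all genes tested. Filled points appear for 8 genes in DOX/anti-PD-1 against anti-PD-1 and for 3 genes over both antibodies, and none of the 10 genes passed the adjusted limit in any panel.

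The antibody was compared in the same way. Anti-PD-1 tumors against IgG1 tumors gave negative log2 fold changes for 9 of the 10 genes, with a median of -0.55 against -0.03 over all 13692 genes tested. Lep was lowest at -0.90 (standard error 0.71, limma adjusted p = 0.996) and Adipoq stood at -0.87 (standard error 0.48). None of the 10 genes (0 of 10) was called by limma, nor any of all genes (0%), and 0 of 10 against 4.60% had an unadjusted p below 0.05. In 0 of 10 genes did all anti-PD-1 tumors lie below all IgG1 tumors, against 6.24% of all genes. This rested on IgG1 replicate 1: without it the median was -1.33, all 10 were negative, 9 lay below in every tumor (18.3% of all genes in that fit), and 9 had an unadjusted p below 0.05 (6.73% of all genes) with a smallest limma adjusted p of 0.579. Without anti-PD-1 replicate 1 or 3, 1 of the 10 genes reached that level (5.28% and 3.72% of all genes). With IgG1 replicate 1 left out, the IgG1 tumors had 421 and 354 TPM in sum, against 151 to 223 TPM under anti-PD-1.

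With doxorubicin in both groups, DOX/anti-PD-1 against DOX/IgG1 had a median of 0.23 over the 10 genes against -0.04 over all 13946 genes tested. Cidec had the highest log2 fold change, 1.70 (standard error 1.00, limma adjusted p = 0.988), and the groups overlapped in each of the 10 genes, while 4.27% of all genes lay higher in every DOX/anti-PD-1 tumor. None of the 10 was called by limma (0 of 10, and 0% of all genes), and 0 of 10 against 4.70% had an unadjusted p below 0.05. Here DOX/IgG1 replicate 2 stood against the direction of the rest: without it the median was 1.08, 7 genes were higher in every DOX/anti-PD-1 tumor (8.27% of all genes in that fit) and 5 had an unadjusted p below 0.05 (4.27%), and without both tumors of the fat-rich pair the median was 0.67 with 2 genes at that level (2.84% of all genes). The median was -0.16 without DOX/anti-PD-1 replicate 1, -0.09 without DOX/IgG1 replicate 1 and -0.07 without DOX/IgG1 replicate 3.

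Anti-PD-1 over both arms gave a median of -0.13 over the 10 genes against -0.03 over all 14735 genes. Its sign rested on single tumors: the median was 0.19 without DOX/IgG1 replicate 2, 0.08 without IgG1 replicate 2, 0.03 without IgG1 replicate 3 and -0.40 without DOX/IgG1 replicate 1. There were 0 of 10 called by limma (0% of all genes) and 0 of 10 at an unadjusted p below 0.05 (4.69% of all genes). A difference of the doxorubicin effect between antibodies was tested directly as the interaction. Its median was 0.89 over the 10 genes against -0.01 over all genes, and it ranged from 0.44 without DOX/IgG1 replicate 3 to 1.64 without DOX/IgG1 replicate 2. There were 0 of 10 called by limma (0.00679% of all genes, 1 gene) and 0 of 10 at an unadjusted p below 0.05 (4.71% of all genes). For Cidec it was 2.26 (standard error 1.51) and for Adipoq 1.44 (standard error 1.06), both with a limma adjusted p of 0.993. At an unadjusted p below 0.05 there were 5 of the 10 without DOX/IgG1 replicate 2 (4.94% of all genes in that fit) and 4 without the pair (4.85%). The greater doxorubicin difference beside anti-PD-1 was therefore not shown to differ from that beside IgG1.

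Other genes of fat tissue were taken as 8 lists of 64 genes, all of them listed in the tumors, on regulators, droplet proteins, lipolysis, uptake and triglyceride synthesis, insulin action, secretion, fatty acid synthesis and brown fat. Of these, 62 were tested for doxorubicin over both antibodies. By limma 0 rose and 0 fell, 47 had a positive log2 fold change with a median of 0.33, and 18 had an unadjusted p below 0.05, against 12.0% of all genes. Without the fat-rich pair it was 8 of 61 at that level, against 11.1% of all genes, with a median of 0.05 (0.13 over all genes). For DOX/anti-PD-1 set against anti-PD-1 alone 0 of 60 were called in either direction, with 12 at an unadjusted p below 0.05 (8.63% of all genes) and a median of 0.47 (0.11 over all genes). Without DOX/anti-PD-1 replicate 1 it was 12 of 57 (10.04% of all genes) and 0.28. For DOX/IgG1 against IgG1 it was 0 of 60 called, 5 at that level (7.73% of all genes) and a median of 0.15 (0.12 over all genes), and without DOX/IgG1 replicate 2 it was 8 of 57 (6.17%) and -0.28. In anti-PD-1 against IgG1 0 of 58 were called, with 5 at that level (4.60% of all genes), and with doxorubicin in both groups 0 of 62, with 4 (4.70%). Leaving out a tumor, the former ranged from 2 of 56 without IgG1 replicate 3 (4.20%) to 10 of 57 without IgG1 replicate 1 (6.73%). The latter ranged from 2 of 61 without DOX/IgG1 replicate 3 (3.71%) to 7 of 58 without DOX/IgG1 replicate 2 (4.27%). The interaction gave 0 of 62 called and 4 at that level (4.71%), and anti-PD-1 over both arms 0 of 62 and 3 (4.69%). Leaving out a tumor, the interaction ranged from 1 of 62 without IgG1 replicate 3 (4.58%) to 9 of 61 without DOX/IgG1 replicate 2 (4.94%). Without the fat-rich pair it was 7 of 61 (4.85%). Anti-PD-1 over both arms ranged from 1 of 61 without DOX/IgG1 replicate 2 (4.32%) to 6 of 62 without DOX/IgG1 replicate 1 (6.25%). Without DOX/IgG1 replicate 1, 2 of these genes were called for DOX/IgG1 against IgG1 (G0s2, lower, and Agt, higher) and 2 for doxorubicin over both antibodies (Slc2a4 and Agt, both higher). Of all genes, 113 of 13664 and 211 of 14626 were called in these fits. Agt and Slc2a4 are named here after their values were seen.

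The list of fatty acid uptake and triglyceride synthesis (11 genes) followed the 10 genes most closely, with a median r of 0.78, and 9 of its genes were highest in a tumor of the fat-rich pair. Summed over the list, IgG1 tumors held 293, 392 and 404 TPM, anti-PD-1 tumors 230, 367 and 296 TPM, DOX/IgG1 tumors 346, 825 and 286 TPM and DOX/anti-PD-1 tumors 745, 428 and 358 TPM. The same tumors were high as for the 10 genes. The most abundant of its genes were Fabp5 (mean 92.2 TPM), a fatty acid carrier of epithelium and macrophages, with r = -0.24, and Acsl1 (86.7 TPM), which activates fatty acids, with r = 0.89. For doxorubicin over both antibodies, with the fat-rich pair included, 10 of its 11 genes were positive and 4 had an unadjusted p below 0.05 (12.0% of all genes).

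Fatty acid synthesis (7 genes, median r 0.70) was led by Scd1 (mean 1398 TPM) and Acly (167 TPM), and the sum was highest in DOX/IgG1 replicate 2 (3770 TPM), DOX/anti-PD-1 replicate 2 (3516 TPM) and DOX/anti-PD-1 replicate 1 (2882 TPM). Lipolysis (7 genes, median r 0.62), with Abhd5 (137 TPM) and Pnpla2 (79.1 TPM) as its most abundant genes, summed to 400 TPM in DOX/anti-PD-1 replicate 1 and 351 TPM in DOX/IgG1 replicate 2, with the other 10 tumors between 181 and 354 TPM. These genes are also used by milk-forming epithelium, and the list sums separated the pair less than the 10 genes did. Secreted proteins (7 genes, median r 0.55), led by Nampt (29.8 TPM) and Angptl4 (19.1 TPM), were highest in DOX/IgG1 replicate 2 at 258 TPM. Insulin action (6 genes, median r 0.39) was led by Insr (120 TPM) and Irs1 (34.7 TPM).

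Regulators of differentiation other than Pparg (11 genes, median r 0.50) were led by Srebf1 (429 TPM, r = -0.46) and Cebpb (144 TPM, r = -0.41), and summed to the lowest levels in DOX/anti-PD-1 replicate 1 (499 TPM) and DOX/IgG1 replicate 1 (519 TPM). For the other droplet proteins (8 genes, median r 0.15) G0s2 (135 TPM) and Plin2 (104 TPM) were most abundant, and both are found in many cell types. The receptors of adiponectin and leptin (4 genes) were led by Adipor1 (72.1 TPM) and Adipor2 (70.1 TPM) and varied only 1.44-fold in sum, with 0 of 4 called for doxorubicin over both antibodies.

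Brown and beige fat (7 genes, 5 of them at 1 TPM in at least 3 tumors) was led by Cox8b (13.5 TPM) and Prdm16 (5.63 TPM). Its sum was 98.4 TPM in DOX/anti-PD-1 replicate 1, 33.4 TPM in DOX/IgG1 replicate 2 and between 4.33 and 40.4 TPM elsewhere. Cox8b gave 37.6 TPM of the sum in DOX/anti-PD-1 replicate 1, a tumor that was also the highest in skeletal muscle genes (1054 TPM in sum). How much of the sum came from brown fat and how much from muscle was not tested. Ucp1, the uncoupling protein that defines brown fat, was named after its values were seen. It was at 26.4 TPM in DOX/anti-PD-1 replicate 1, 3.09 TPM in DOX/IgG1 replicate 2 and 0.77 TPM in anti-PD-1 replicate 2, and was listed at 0 in the other 9 tumors. The pair of fat-rich tumors thus held the highest Ucp1 levels too, and of the pair it was DOX/anti-PD-1 replicate 1 in which it was high.

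The genes whose pattern was most like that of the 10 were sought among all 14735 genes with at least 1 TPM in 3 tumors. Likeness was Pearson r over 12 tumors between log2(TPM + 1) of a gene and the mean z-score of the 10 (for each of the 10, of the other 9), a description without p in which the tumors of the fat-rich pair weigh heavily. The median r of all genes was 0.15, and 52 genes, 6 of the 10 among them, were above 0.8. Among genes other than the 10, Cd36, a fatty acid transporter, was first with r = 0.96 (Spearman rho 0.92). It was at 6.44, 34.2 and 42.3 TPM under IgG1, at 12.6, 18.4 and 18.0 TPM under anti-PD-1, at 31.2, 150 and 24.8 TPM under DOX/IgG1 and at 104, 30.4 and 32.5 TPM under DOX/anti-PD-1, with the same pair on top and IgG1 replicate 1 lowest.

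Then came Car3, a carbonic anhydrase abundant in fat and muscle (r = 0.92), Gstz1 (0.92), Slc36a2 (0.91), Cyp2e1 (0.90), Pdha1 (0.90) and Pck1, an enzyme of glyceride synthesis in fat (0.89). They were followed by Acvr1c (0.89), Kin (0.89), Acsl1 (0.89), Adrb3, the beta-adrenergic receptor of fat cells (0.88), Ces1f (0.88), Coro2b (0.88), Acp5 (0.87) and Gm12258 (0.87). Of these 15 genes, 4 belong to the lists of fat tissue (Cd36, Pck1, Acsl1 and Adrb3) and 14 had their highest tumor in the pair. Spearman rho of the 15 lay between 0.73 and 0.92. Without the 2 tumors farthest from the median, which are the same pair, r lay between 0.67 and 0.89, but the 15 most alike genes then shared only 1 gene with these. Car3 reached 744 TPM in DOX/IgG1 replicate 2 and 454 TPM in DOX/anti-PD-1 replicate 1, against 29.8 TPM in IgG1 replicate 1. Dio2 (r = 0.55, rho 0.71) and Pdk4 (r = 0.71, rho 0.70), which adipose tissue is known to express, lay lower in this order than the 15. Percentile 95 of r over all genes was 0.60, which Pdk4 exceeded and Dio2 did not, and Pdk4 was close to Pparg (0.72), the lowest of the 10. Without the 2 farthest tumors r was 0.56 for Dio2 and 0.45 for Pdk4.

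**Figure D4:**
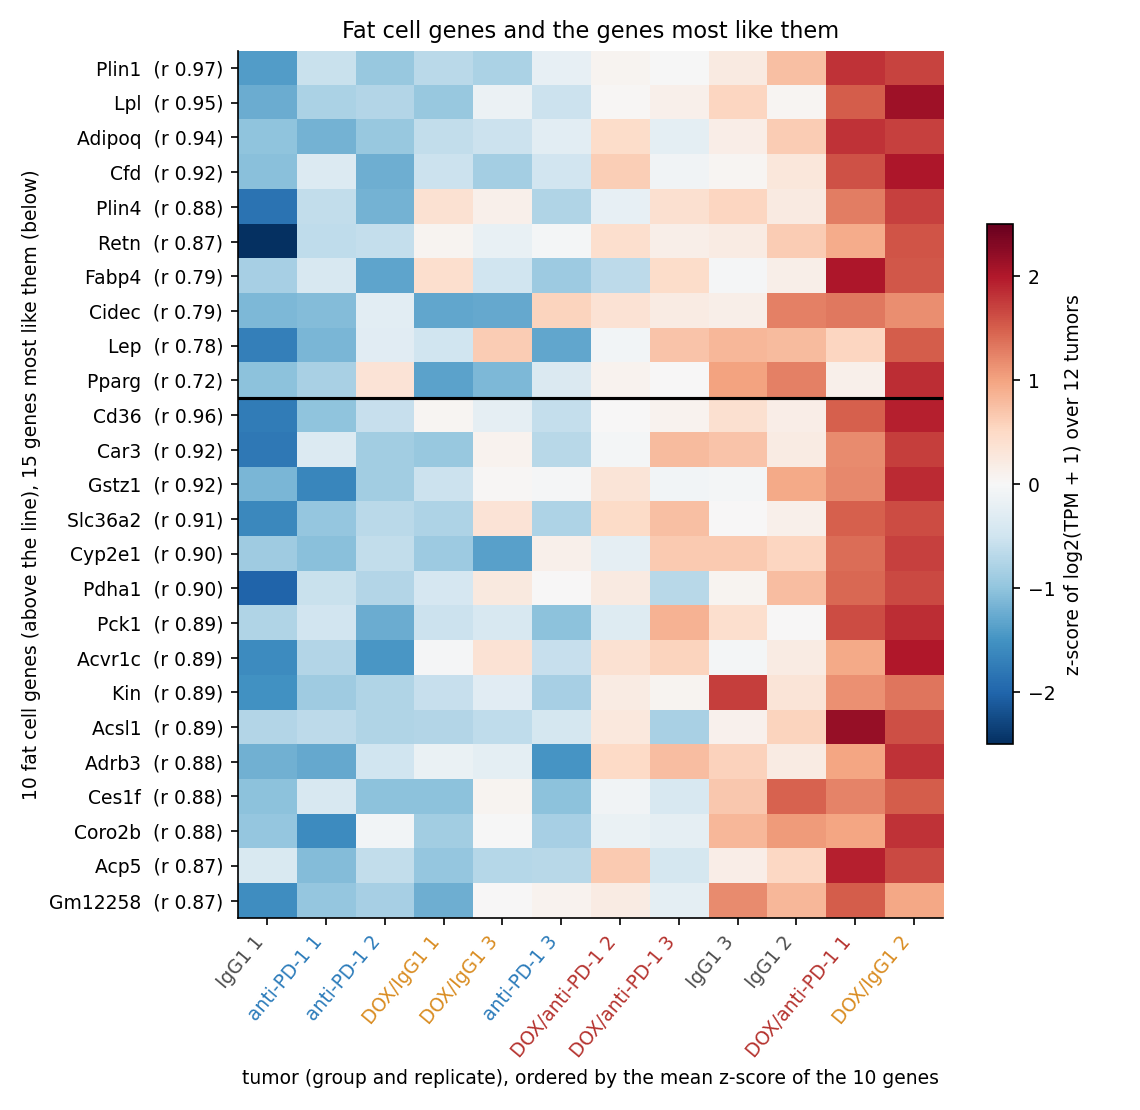
Z-scores of log2(TPM + 1) over the 12 tumors (color) for the 10 fat cell genes above the line and the 15 genes most like them below it, each with its r. Tumors are ordered from left to right by the mean z-score of the 10 genes, from IgG1 replicate 1 (-1.37) to DOX/IgG1 replicate 2 (1.69), and their names are colored by group.

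Markers of other cell types show what else the pieces of tumor held. Skeletal muscle (10 of 10 genes detected) is present beside some mammary glands. It was led by Acta1 (mean 52.4 TPM) and Myh4 (49.2 TPM), and its sum was 155, 45.6 and 578 TPM under IgG1, 608, 70.3 and 34.0 TPM under anti-PD-1, 53.7, 165 and 213 TPM under DOX/IgG1 and 1054, 16.6 and 204 TPM under DOX/anti-PD-1. DOX/anti-PD-1 replicate 1, the fat-rich tumor with Ucp1, was thus also the highest in muscle RNA, whereas DOX/IgG1 replicate 2 was not. In DOX/anti-PD-1 replicate 2, 8 of the 10 muscle genes were listed at 0. The median r of the muscle genes with the 10 fat cell genes was 0.17. Their part in the result was not tested.

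Fibroblast genes (8 of 8 detected, led by Col1a1 at 358 TPM and Col3a1 at 332 TPM) summed to 1215, 1152 and 1820 TPM in IgG1, 936, 853 and 687 TPM in anti-PD-1, 547, 1851 and 1302 TPM in DOX/IgG1 and 1072, 1421 and 1582 TPM under DOX/anti-PD-1. DOX/IgG1 replicate 2 was the highest and DOX/IgG1 replicate 1 the lowest of the 12. As with the sum of the fat cell genes, all DOX/anti-PD-1 tumors lay above all anti-PD-1 tumors. In that comparison 8 of 8 fibroblast genes were positive, with a median log2 fold change of 0.63, and 0 were called. An unadjusted p below 0.05 was found for 4 of them (8.63% of all genes). For anti-PD-1 against IgG1, 0 of 8 were positive and 2 were at that level (4.60% of all genes). Markers of adipose progenitors (6 of 6 detected, led by F3 at 148 TPM and Ly6a at 122.99 TPM) summed to 862 TPM in DOX/IgG1 replicate 2 and 1047 TPM in DOX/IgG1 replicate 3, against 179 to 392 TPM in the other 10 tumors. The latter tumor had only 202 TPM of the 10 fat cell genes, while DOX/IgG1 replicate 2 was among the 2 highest tumors for both lists. For DOX/anti-PD-1 against anti-PD-1, 6 of 6 progenitor genes were positive and 2 had an unadjusted p below 0.05 (8.63% of all genes). The part of both lists in the result was not tested.

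Macrophages, which can express Fabp4, Lpl and Pparg, were followed by 5 genes, all detected and led by Lyz2 (271 TPM) and Mrc1 (39.8 TPM). Their sum was 396, 322 and 428 TPM in IgG1, 254, 372 and 288 TPM in anti-PD-1, 443, 461 and 463 TPM in DOX/IgG1 and 242, 427 and 474 TPM under DOX/anti-PD-1. The sum follows mostly Lyz2, and the groups overlapped, except that all DOX/IgG1 tumors lay above all 6 tumors without doxorubicin. Their part in the result was not tested. Endothelial genes (6 of 6 detected, led by Pecam1 at 37.9 TPM and Cdh5 at 20.0 TPM) lay between 52.7 TPM in DOX/anti-PD-1 replicate 3 and 130 TPM in DOX/anti-PD-1 replicate 2, with a median r of 0.18. All anti-PD-1 tumors (87.5, 82.7 and 87.25 TPM) lay below all IgG1 tumors (117, 102 and 124 TPM). In that comparison 1 of 6 genes was positive and 0 had an unadjusted p below 0.05 (4.60% of all genes). The part of endothelial genes in the result was not tested.

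Epithelium, the tissue of the tumor itself, was led by Epcam (729 TPM) and Krt19 (662 TPM), with all 6 genes detected and a sum between 2040 and 3675 TPM, far above the fat cell genes in every tumor. Its median r with the 10 genes was -0.12. Milk genes (9 of 9 detected), led by Csn3 (5318 TPM) and Lalba (316 TPM), summed to 7594, 4917 and 8670 TPM in IgG1, 6595, 10450 and 7536 TPM in anti-PD-1, 1152, 3338 and 2631 TPM in DOX/IgG1 and 6154, 8537 and 3099 TPM under DOX/anti-PD-1. All DOX/IgG1 tumors lay below all IgG1 tumors, with a median log2 fold change of -1.78 over the list. By limma 0 of 9 milk genes were called, and an unadjusted p below 0.05 was found for 4 of 9 in that comparison (7.73% of all genes) and for 6 of 9 where both groups received doxorubicin (4.70% of all genes). The median r of the milk genes was -0.06. Myoepithelial genes (5 of 5, led by Oxtr at 44.8 TPM and Krt14 at 36.7 TPM) had a median r of -0.18. Blood genes (5 of 5, led by Hbb-bs at 122 TPM and Hba-a2 at 77.4 TPM) reached 2346 TPM in DOX/IgG1 replicate 1 against at most 297 TPM elsewhere. That tumor had 8104 genes listed at 0, the most of the 12, and the lowest median correlation with the other tumors (0.884). The part of these lists in the result was not tested.

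Of 7 salivary genes, 6 were listed, led by Amy1 (17.1 TPM) and Bpifa2 (7.46 TPM). Bpifa2 was listed at 0 outside the DOX/IgG1 group and at 14.4, 21.3 and 53.7 TPM within it, and Smr3a was at 16.6, 10.2 and 14.8 TPM there, 2.76 TPM in anti-PD-1 replicate 3 and at 0 elsewhere. With all 12 tumors and the settings as reported, they are the only genes of any list here that limma called. Both were called in DOX/IgG1 against IgG1 (0.0360% of all genes), and Bpifa2 also in the interaction (0.00679% of all genes). Both genes reached the minimum only through the DOX/IgG1 tumors, where they are high, so the calls add no separate support. The salivary list sum in the DOX/IgG1 tumors was highest in replicate 3, not in the fat-rich replicate 2 (60.1, 97.98 and 118 TPM). Lymph nodes lie in some mammary fat pads, and 2 of 6 genes of their list were detected, led by Ccl21a (6.31 TPM) and Ccl19 (0.645 TPM). Schwann cell genes (5 of 5, led by Pmp22 at 33.1 TPM and Mbp at 13.9 TPM) were highest in DOX/IgG1 replicate 2 at 122.9 TPM, and all DOX/anti-PD-1 tumors (56.7, 52.7 and 101 TPM) lay above all anti-PD-1 tumors (29.9, 40.4 and 40.9 TPM), with 5 of 5 genes positive and 2 at an unadjusted p below 0.05 (8.63% of all genes). Skin genes (4 of 5 detected, led by Krt10 at 3.44 TPM and Krt71 at 2.22 TPM, with Lor at 0 in 9 tumors) summed to 22.3, 30.9 and 21.6 TPM in the anti-PD-1 tumors, above the other 9 tumors, which held at most 11.5 TPM. By limma 0 skin genes were called. At an unadjusted p below 0.05 there were 3 of 3 tested for anti-PD-1 against IgG1 (4.60% of all genes) and 2 of 4 for DOX/anti-PD-1 against anti-PD-1 (8.63% of all genes). In both comparisons Krt71 and Flg2, the latter named after its values were seen, reached the minimum only through the anti-PD-1 tumors. These counts were thus partly fixed by the filter, and no conclusion is drawn from them. The part of these lists in the result was not tested.

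**Figure D5:**
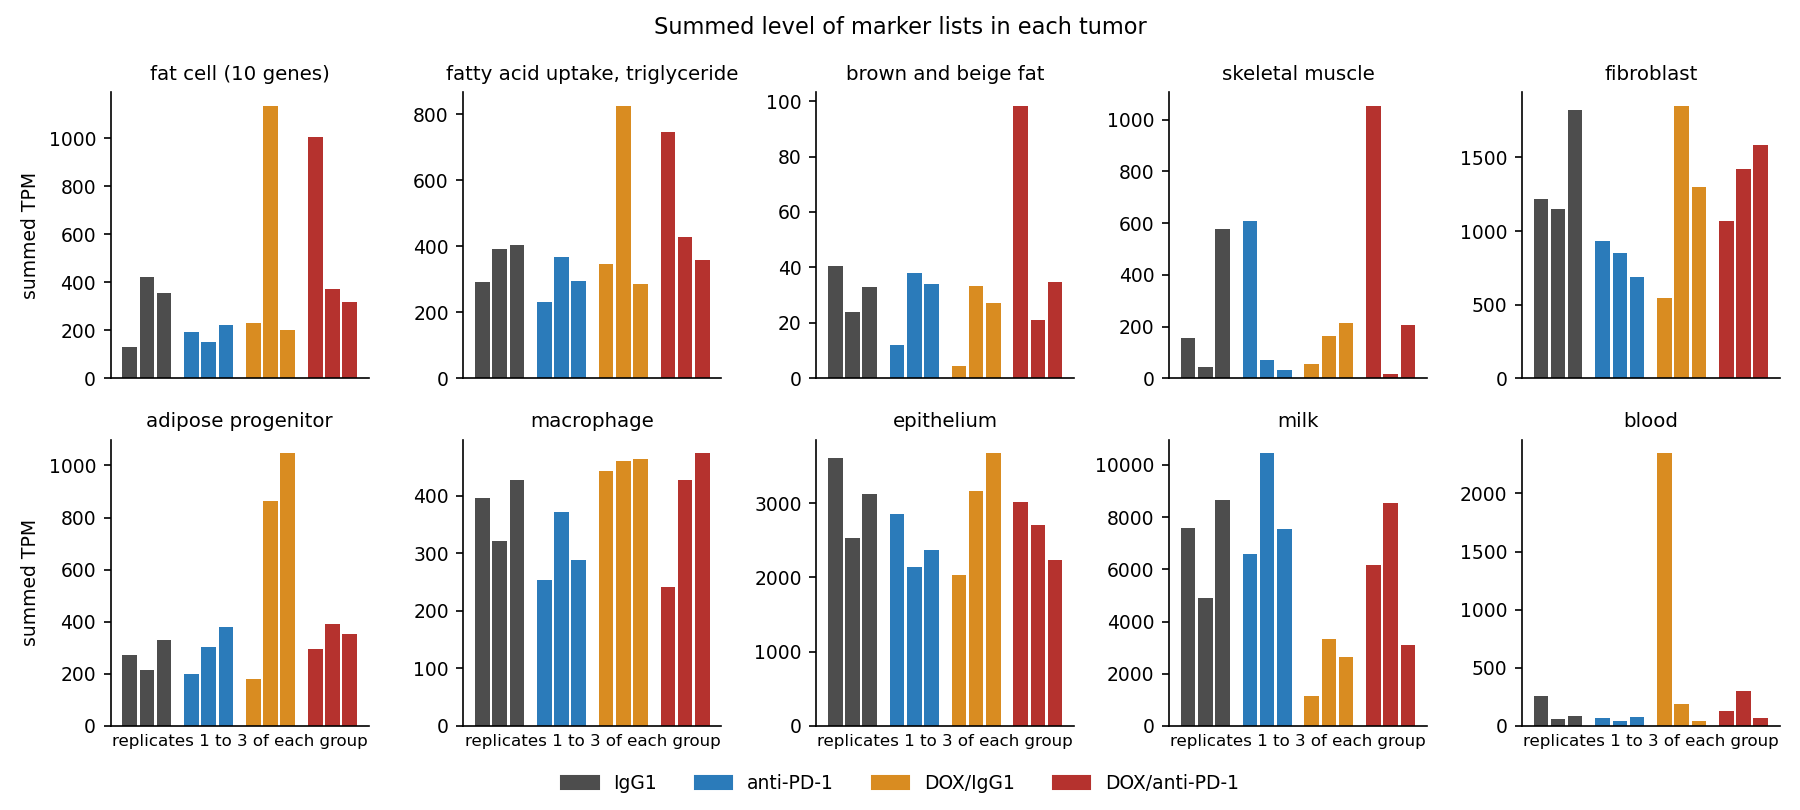
Summed TPM (vertical axes from 0, a scale for each panel) of marker lists in the 12 tumors, with a bar for each replicate colored by group. The fat cell genes and the genes of fatty acid uptake share their 2 highest tumors, while the muscle list and the brown fat list, whose sources were not separated, are highest in DOX/anti-PD-1 replicate 1. Adipose progenitor genes are highest in DOX/IgG1 replicate 3.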

How the data were processed

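RNA of 12 PyMT mouse mammary tumors, 3 in each of 4 treatment groups, was sequenced. The authors trimmed reads with skewer, aligned them to mm10 with STAR, quantified genes with RSEM and deposited log2(TPM + 1) for each gene. These values were turned back to TPM. Read counts are not given, so the depth is unknown. Gene positions came from GENCODE vM21.

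Genes with at least 1 TPM in 3 of the tumors compared were tested on log2(TPM + 1), a pseudocount of 1, with limma 3.58.1 (moderated with a trend) in R 4.3.3, in 7 comparisons. A gene was called at an adjusted p below 0.1 with an absolute log2 fold change above 1. Two-sided exact permutation tests used all 20 splits of 3 against 3 tumors, where the smallest p is 0.1, or 924 splits of 6 against 6. Python 3.11.15, numpy 2.4.6, pandas 2.3.3, scipy 1.17.1 and matplotlib 3.10.9 were used. The scripts were tested on simulated data.

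Named are the 10 fat cell genes, the 2 most abundant genes and every called gene of each wider list, the 15 other genes most alike, and Dio2 and Pdk4. Members and lists were chosen with earlier results of these data known. Alternatives were other pseudocounts, minimums, scalings and fits, a block for replicate numbers, and leaving out tumors.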

Additional observations from a re-analysis of the deposited data

How the results depend on the processing

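None of the 10 fat cell genes was called by limma in any of the 7 comparisons under any of the 112 alternatives run, while between 0 and 9 of them had an unadjusted p below 0.05. The medians of their log2 fold changes took the other sign in 9 of the 112. They ranged from -0.34 to 0.88 for DOX/IgG1 against IgG1 (0.44 with all tumors and settings as reported), from 0.92 to 1.60 for DOX/anti-PD-1 against anti-PD-1 (1.38), from -1.33 to -0.22 for anti-PD-1 against IgG1 (-0.55), from -0.16 to 1.08 for DOX/anti-PD-1 against DOX/IgG1 (0.23), from 0.23 to 1.19 for doxorubicin over both antibodies (0.92), from -0.40 to 0.19 for anti-PD-1 over both arms (-0.13) and from 0.44 to 1.64 for the interaction (0.89). Single genes were run for 3 of the comparisons, DOX/IgG1 against IgG1, DOX/anti-PD-1 against anti-PD-1 and doxorubicin over both antibodies. Of their 457 log2 fold changes under alternatives, 440 kept their direction and 17 reversed. For doxorubicin over both antibodies the exact permutation p was below 0.05 for Plin4 and Fabp4 alone. Of 13 alternatives for each, it was no longer below 0.05 in 8 for Plin4 and in 9 for Fabp4. For Retn it came to lie below 0.05 in 1 of 13, and for the other 7 genes in 0. The cause of the changes below was not tested.

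Leaving out each tumor in turn, the number of all genes called ranged from 0 to 113 for DOX/IgG1 against IgG1 (5 with all tumors), from 0 to 4 for DOX/anti-PD-1 against anti-PD-1 (0), from 0 to 4 for anti-PD-1 against IgG1 (0), from 0 to 3 for DOX/anti-PD-1 against DOX/IgG1 (0), from 0 to 211 for doxorubicin over both antibodies (3) and from 0 to 1 for the interaction (1). The highest counts, 113 and 211, came without DOX/IgG1 replicate 1. Genes of the wider lists of fat tissue called ranged from 0 to 2 for DOX/IgG1 against IgG1 and from 0 to 2 for doxorubicin over both antibodies, with 2 without the same tumor. Where a group then holds 2 tumors, the fit assumes that they vary like the others.

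Again leaving out each tumor in turn, the number out of the 10 at an unadjusted p below 0.05 ranged from 0 to 1 for DOX/IgG1 against IgG1, from 5 to 8 for DOX/anti-PD-1 against anti-PD-1, from 0 to 9 for anti-PD-1 against IgG1, from 0 to 5 for DOX/anti-PD-1 against DOX/IgG1, from 2 to 7 for doxorubicin over both antibodies and from 0 to 5 for the interaction. In 3 of the fits of anti-PD-1 against IgG1 only 9 of the 10 genes passed the minimum.

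Single log2 fold changes that reversed without a tumor were, for DOX/IgG1 against IgG1, those of Adipoq (-0.59 to 0.79), Plin1 (-0.73 to 0.81), Cidec (-2.15 to 0.0286), Lep (-0.26 to 1.13), Lpl (-0.28 to 1.02) and Cfd (-0.40 to 0.87). For doxorubicin over both antibodies they were those of Cidec (-0.18 to 0.78) and Pparg (-0.52 to 0.17). The exact permutation p of Cidec ranged from 0.303 to 0.961 and that of Pparg from 0.312 to 0.965. For Plin4 it ranged from 0.0130 to 0.0693 and for Fabp4 from 0.0216 to 0.0909.

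Without a trend of the variance with the mean, limma called 13 genes for DOX/IgG1 against IgG1, 3 for DOX/anti-PD-1 against anti-PD-1, 1 for anti-PD-1 against IgG1, 3 for DOX/anti-PD-1 against DOX/IgG1, 0 for doxorubicin over both antibodies and 3 for the interaction. With median-of-ratios scaling it called 3 for DOX/anti-PD-1 against DOX/IgG1, 14 for doxorubicin over both antibodies and 0 for the interaction. Scaling also gave Pparg an exact permutation p of 0.937, with the difference of mean TPM that this test uses in the other direction, while its log2 fold change was negative with and without scaling. It gave Fabp4 an exact permutation p of 0.0563. With 1 fit over 12 tumors, 2 genes were called for DOX/anti-PD-1 against DOX/IgG1. In that fit 3 of the 10 reached an unadjusted p below 0.05 for DOX/anti-PD-1 against anti-PD-1, with no share of all genes given beside them.

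A minimum of 5 TPM gave 13 genes called for doxorubicin over both antibodies and 0 for the interaction, no minimum gave 3 for the interaction, and a pseudocount of 0.1 TPM gave 0 for the interaction. Without the other treatment as a term 0 genes were called for doxorubicin over both antibodies.

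Replicate numbers do not appear to pair the tumors: of 18 pairs of tumors with the same number in different groups, 4 had a correlation above 0.1, from -0.0963 to 0.134. With the replicate number as a block, 2 genes were called for DOX/IgG1 against IgG1, 1 for doxorubicin over both antibodies and 0 for the interaction. For anti-PD-1 against IgG1, 1 of the 10 then reached an unadjusted p below 0.05. The share of all genes is given only for the fit without the block (4.60%).

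Leaving out both tumors with the most fat cell RNA was chosen after seeing the data. The 10 genes then had an unadjusted p below 0.05 in number 2 for DOX/anti-PD-1 against DOX/IgG1, 0 for doxorubicin over both antibodies and 4 for the interaction, with 6 of all genes called for doxorubicin and 0 for the interaction. The log2 fold change of Cidec for doxorubicin reversed to -0.65. Without Cfd the mean summed TPM of the anti-PD-1 group was 107.8, against 189 with it. The other groups were also lower without it: 192 against 302 in IgG1, 330 against 522 in DOX/IgG1 and 360 against 565 in DOX/anti-PD-1.

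Of the 15 genes most like the 10, 6 were shared when Spearman rho was used and 8 when likeness was to Adipoq alone. Without the 2 tumors farthest from the median, a choice made after seeing the data, 1 was shared. Because the files hold no counts, no limit that depth sets can be given.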
